A study of Mus musculus with 8 samples.

Results

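The Serpina gene cluster on mouse chromosome 12 was examined in bulk ATAC-Seq of hepatocytes, which reads open chromatin as sites where the Tn5 enzyme can cut. It was defined by 10 genes, which lie along the chromosome in the order Serpina10, Serpina6, Serpina1b, Serpina1d, Serpina1a, Serpina1c, Serpina1e, Serpina11, Serpina12 and Serpina3k. The span ran from the first to the last of these genes plus 20 kb on each side, chr12:103594786-104366144 of the mm10 build, or 771 kb. When the distinct peak intervals of all 8 libraries were merged wherever they overlapped, 206 of the 315767 merged regions of the genome lay in the span. Of these, 26 were promoter regions, within 1 kb of an annotated transcription start site, and 180 were distal.

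The libraries came from liver hepatocytes of C57BL/6 mice (C57BL/6J in the study's methods), 10-12 weeks old and fed a normal diet, which the study describes as adult males. Cells were taken from undamaged liver (0 h), or at 48, 72 or 96 hours after partial hepatectomy (PHx), the surgical removal of most of the liver that sets off its regrowth. Each of the 4 groups held 2 libraries, and the labels name no transgene or drug. The list of the second 72-hour library came from a run named unlike the other 7, and what that marks is not stated. The undamaged animals are described as healthy, so surgery without resection is not part of the comparison. With 2 libraries against 2, an exact two-sided permutation test cannot give a p below 0.333. A model across all regions, limma, was therefore used for tests, and ranks are given as descriptions. All 3 comparisons after PHx share the same 2 undamaged libraries.

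Serpins inhibit serine proteases by trapping them in a covalent complex, and some family members have lost that activity and carry hormones instead. Hepatocytes secrete large amounts of them into plasma. Serpina1 encodes alpha-1 antitrypsin, the main plasma inhibitor of neutrophil elastase. Humans have a single SERPINA1 gene, whereas the C57BL/6 mouse carries several near-identical copies side by side. Serpina6 encodes corticosteroid-binding globulin, Serpina10 the protein Z-dependent protease inhibitor that acts on coagulation factor X, and Serpina12 the adipokine vaspin. Serpina3k belongs to the mouse family related to human alpha-1 antichymotrypsin.

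The Serpina1 copies set a particular limit on these measurements, because a read that maps to several copies cannot be placed. Their promoters are shown first for that reason. The longest run of bases shared by all 5 copies within 200 bases upstream of their start sites was 59 bases long, printed in capitals, with 40 bases before it and 30 after it. All are from GRCm38.p6 (mm10), minus strand, written 5′ to 3′, at chr12:103738166-103738294 (1b), chr12:103773600-103773728 (1d), chr12:103863591-103863719 (1a), chr12:103904928-103905056 (1c) and chr12:103956926-103957054 (1e).
Serpina1b promoter: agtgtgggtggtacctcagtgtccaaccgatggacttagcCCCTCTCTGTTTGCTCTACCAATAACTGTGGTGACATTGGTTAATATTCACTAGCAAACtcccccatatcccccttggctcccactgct
Serpina1d promoter: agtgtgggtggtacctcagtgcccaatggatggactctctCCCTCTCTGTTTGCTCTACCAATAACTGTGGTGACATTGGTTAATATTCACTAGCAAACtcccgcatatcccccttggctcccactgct
Serpina1a promoter: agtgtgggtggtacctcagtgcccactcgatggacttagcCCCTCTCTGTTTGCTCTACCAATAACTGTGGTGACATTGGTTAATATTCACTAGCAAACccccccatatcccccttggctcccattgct
Serpina1c promoter: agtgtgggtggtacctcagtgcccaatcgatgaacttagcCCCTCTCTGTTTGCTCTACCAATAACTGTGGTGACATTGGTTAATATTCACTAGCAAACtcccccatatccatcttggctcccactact
Serpina1e promoter: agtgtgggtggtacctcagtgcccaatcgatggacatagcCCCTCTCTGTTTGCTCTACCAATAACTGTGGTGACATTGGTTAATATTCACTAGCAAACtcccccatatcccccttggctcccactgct
Over these 129 bases the 10 pairs of copies were 92.2% to 97.7% identical, and Serpina1b and Serpina1e differed at 3 positions.

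How much of each promoter a read could identify was measured as the share of 50-base windows, within 1 kb on either side of the start site, that occur at a single place in the genome on either strand. All such windows of the Serpina10 and Serpina6 promoters were unique (100%). The share was 98.2% for Serpina11, 95.3% for Serpina12 and 85.7% for Serpina3k. Among the Serpina1 copies it fell to 70.9% for Serpina1b, 64.2% for Serpina1a, 59.8% for Serpina1c, 53.9% for Serpina1d and 48.5% for Serpina1e. Across the stretch that holds the 5 copies the share was 51.1%, against 79.7% for the span as a whole. The read length is not given in the sources used here, so longer or paired reads may have been placed where these windows were not.

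Listed regions nevertheless took up the same share of the Serpina1 stretch, chr12:103728156-103958975, as of the rest of the span (13.3% in both). The stretch held 60 of the 206 regions, 14 of them listed in all 8 libraries. Those 60 regions had a median of 78.1% unique windows. Over the whole span, regions found in all 8 libraries were 100% unique at the median, as were those found in 2 to 7 and those found in 1. The least unique region found in all 8, the Serpina1a promoter region, had 55.7%. Some of the longest runs with no interval in any library lay in poorly unique sequence, for example 36.6 kb that were 39.4% unique and 31.1 kb that were 39.7% unique. A shorter run of 20.9 kb near Serpina3d-ps was 97.5% unique.

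**Figure D1:**
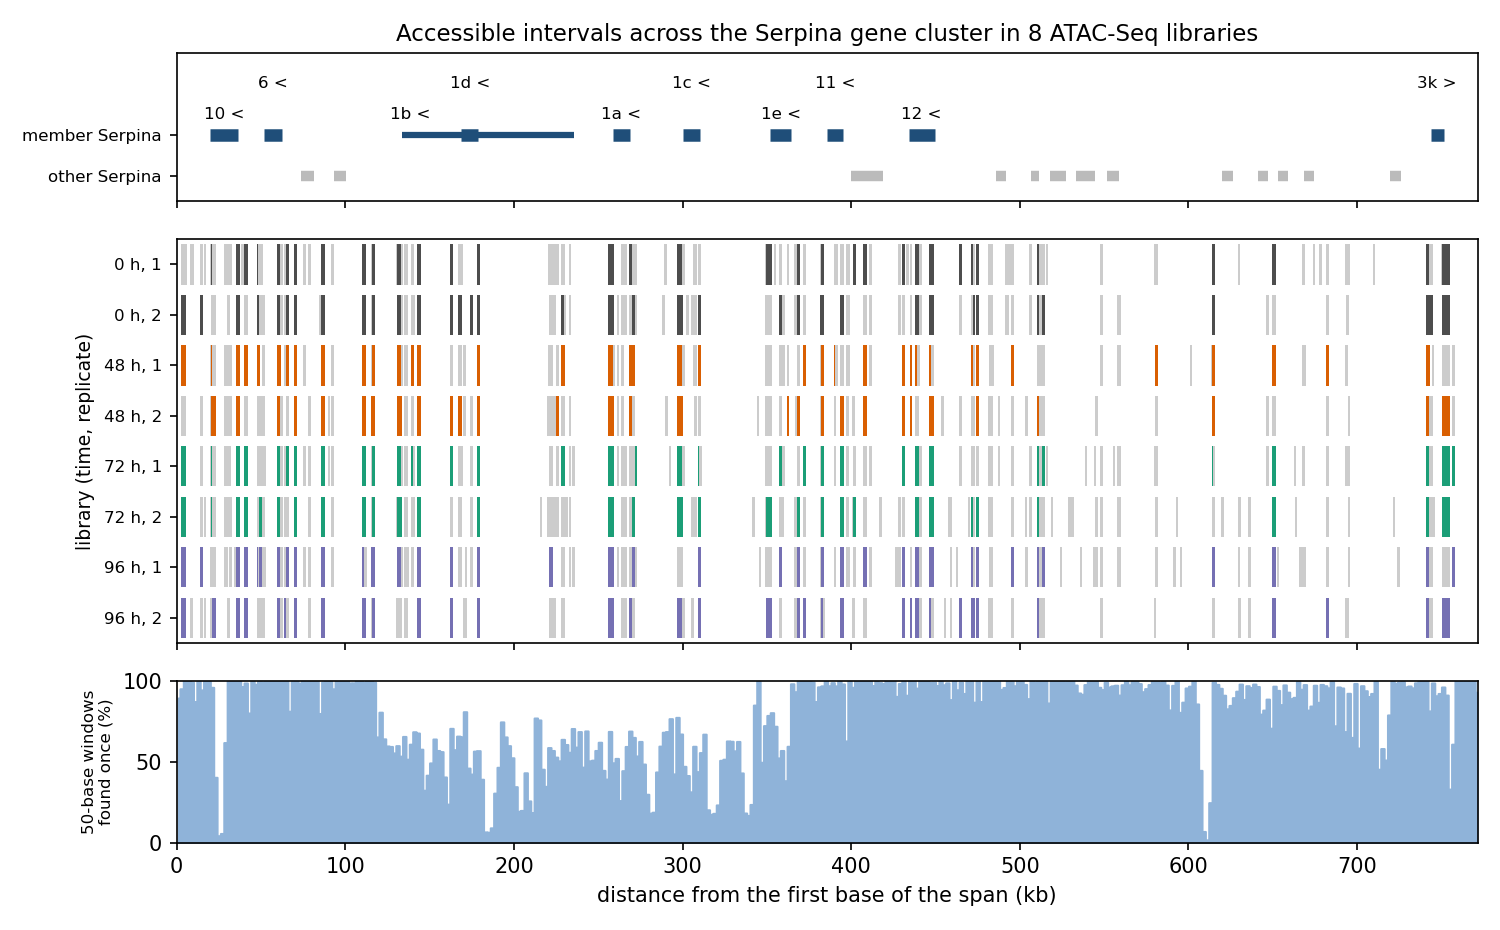
Map of the Serpina span, with distance from its first base in kb on the horizontal axis. The top track shows the 10 member genes (dark, with the arrow giving the strand) and other Serpina genes (grey), the middle track the merged regions in which each library lists an interval (coloured where that interval is ranked within the 50000 strongest of their list, grey otherwise, and widened by 0.6 kb on each side to be visible), and the bottom track the share of 50-base windows found at a single place in the genome. The Serpina1 copies share low uniqueness, and 50 regions recur in all 8 libraries.

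Across the span, 50 of the 206 regions (24.3%) were listed in all 8 libraries, against 18.2% of regions in the genome. Only 36.9% of the span's regions were listed in a single library, against 52.5% of all regions. A region of the span had a median length of 364 bp, against 259 bp over the genome. Between 102 and 140 intervals of the span were listed per library, of which 32 to 40 were among the 50000 strongest intervals of their list. Whole lists held 105206 to 154577 distinct intervals. Read numbers cannot be had from a peak list, which leaves the depth of each library unknown. List length and strength differ between libraries, and a rank within a list (1 is strongest, by the −log10 p-value of the peak caller) was used to set libraries side by side.

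Promoters of 9 of the 10 members were listed in at least 1 library, and those of 6 members in all 8. The strongest was Serpina10 (ENSMUSG00000061947.10, chr12:103614786-103631444, minus strand). Its promoter interval ranked 17965 and 7850 in undamaged liver, 17840 and 14377 at 48 hours, 6535 and 19449 at 72 hours, and 6807 and 44335 at 96 hours. The second 96-hour library stood lower than the other 7, and the groups overlapped at every time. Fold enrichment over the local background ranged from 4.35 to 11.2.

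Serpina1d (ENSMUSG00000071177.4, chr12:103763594-103773592, minus strand) came next. It ranked 17544 and 12738 in undamaged liver, 23269 and 28696 at 48 hours, 18490 and 13836 at 72 hours, and 16440 and 24500 at 96 hours. Both 48-hour libraries lay below both undamaged ones, and the other times overlapped. Serpina1b (ENSMUSG00000071178.11, chr12:103728156-103830373, minus strand) ranked 13344 and 20687, then 28205 and 15245, 26058 and 24932, and 28071 and 14759 at the same 4 times. Both 72-hour libraries lay below the undamaged ones.

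Serpina11 (ENSMUSG00000063232.16, chr12:103980243-103989957, minus strand), a little-studied serpin made in liver, ranked 53572 and 34513 in undamaged liver, 51977 and 32795 at 48 hours, 41977 and 43089 at 72 hours, and 39978 and 37882 at 96 hours. Its ranks spanned the narrowest range of the 9 listed promoters, 1.63 times between best and worst. Serpina1c (ENSMUSG00000079015.2, chr12:103894926-103904887, minus strand) ranked 53587 and 28331, 29318 and 53439, 47102 and 34155, and 39144 and 48537. Neither promoter separated from undamaged liver by rank at any time.

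Serpina1a (ENSMUSG00000066366.14, chr12:103853589-103863562, minus strand) ranked 41920 and 52241 in undamaged liver, 48015 and 30742 at 48 hours, 57281 and 54406 at 72 hours, and 107690 and 49094 at 96 hours. Both 72-hour libraries lay below the undamaged ones, and the first 96-hour library held its lowest rank. Serpina1e (ENSMUSG00000072849.10, chr12:103946931-103958975, minus strand) was listed in 3 libraries, at rank 100060 in the first undamaged library and at 67972 and 48652 at 48 hours. It had no interval in the second undamaged library or at 72 or 96 hours, so it ranked higher at 48 hours than in undamaged liver.

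The Serpina1e interval did not cover the shared stretch printed above. It lay at chr12:103957055-103957300, further upstream. The strongest promoter interval covered the whole stretch in 8 libraries for Serpina1d and Serpina1c, in 7 for Serpina1a and in 4 for Serpina1b. Of the 108 windows of 50 bases that touch the stretch, the share found at a single place was 87% for Serpina1d, 73.1% for Serpina1c, 50% for Serpina1a, 41.7% for Serpina1e and 33.3% for Serpina1b. The order of these shares is not the order of the promoters by rank, in which Serpina1b stood above Serpina1c. The part of read placement in these values was not tested.

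Serpina3k (ENSMUSG00000058207.6, chr12:104338486-104346144, plus strand) shares its annotated start with a transcript of Serpina3m, so the promoter interval cannot be assigned to either. It ranked 54054 and 49851 in undamaged liver, was absent from the first 48-hour library and ranked 72857 in the second, then 82669 and 66359 at 72 hours, and 70203 and 75510 at 96 hours. All 6 libraries after PHx lay below both undamaged libraries. Where percentile within the list was used in place of rank, since lists differ in length, the 72-hour libraries (41.1 and 57.1) overlapped the undamaged ones (57.4 and 52.6).

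Serpina6 (ENSMUSG00000060807.7, chr12:103646630-103657212, minus strand) had the weakest promoter of those listed in at least 7 libraries. It ranked 76501 and 53268 in undamaged liver, was absent from the first 48-hour library and ranked 80752 in the second, then 72826 and 82035 at 72 hours, and 104126 and 64277 at 96 hours. It was lower at 48 hours by rank, and overlapped undamaged liver by percentile. Serpina12 (ENSMUSG00000041567.3, chr12:104028769-104044443, minus strand) had no interval within 1 kb of its start site in any library.

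**Figure D2:**
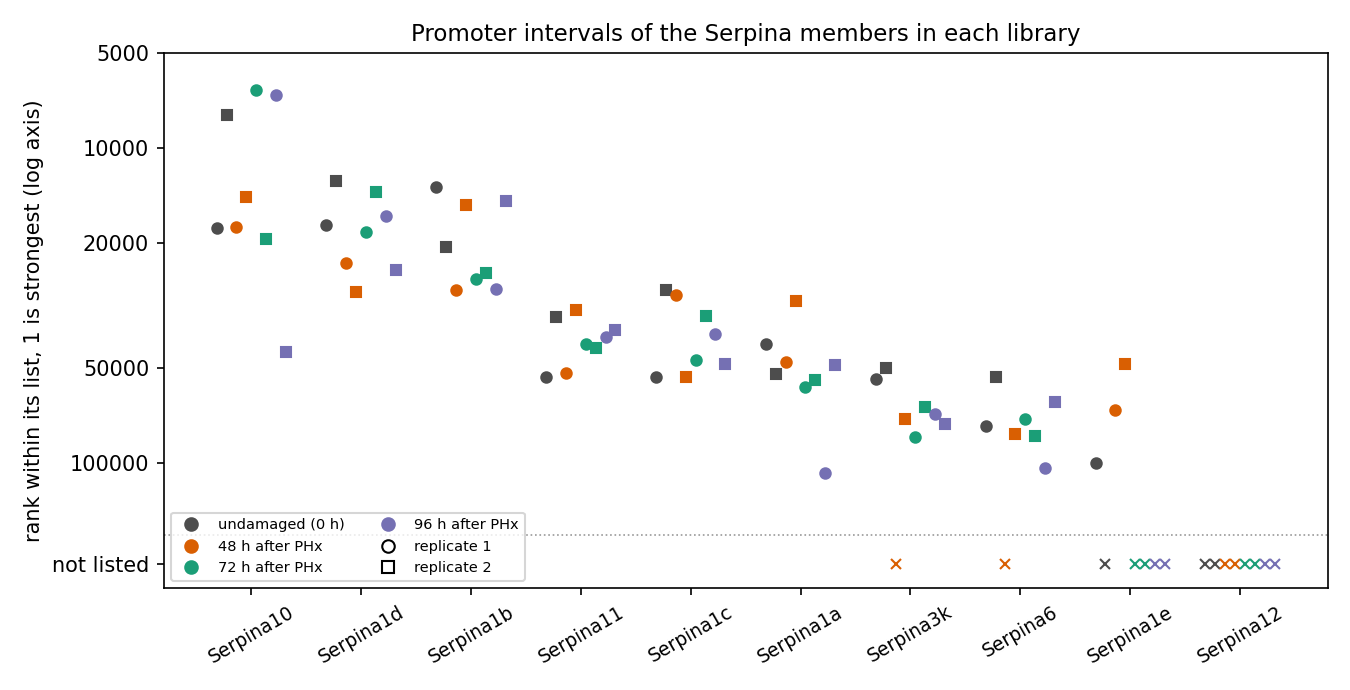
Rank of the promoter interval of each member within its list (vertical log axis, 1 is strongest and upward is stronger) in each library, with colour for time, circles for replicate 1, squares for replicate 2, and crosses for libraries where no interval was listed. Within each library Serpina10, Serpina1d and Serpina1b stand above the other members, except for Serpina10 in the library where it ranks 44335, Serpina1e is listed in 3 libraries and Serpina12 in 0.

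In order of median rank the promoters stood as Serpina10 (16108.5), Serpina1d (18017), Serpina1b (22809.5), Serpina11 (40977.5), Serpina1c (43123), Serpina1a (50667.5), Serpina3k (71530) and Serpina6 (78626.5). Serpina1b ranked above Serpina11 in all 8 libraries with no overlap between their ranges. Every other neighbouring pair in this order overlapped. Serpina10, for instance, ranked above Serpina1d in 5 of the 8 libraries.

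By rank, 1 of 9 member promoters with enough intervals to compare was higher at 48 hours (Serpina1e) and 3 were lower (Serpina6, Serpina1d and Serpina3k). An unlisted library counts as last, so at 48 hours Serpina1e could not be lower, and Serpina6 and Serpina3k could not be higher. Of all coding-gene promoters, 17.8% were higher and 27.4% lower at that time. At 72 hours 0 of 8 were higher and 3 were lower (Serpina1b, Serpina1a and Serpina3k), against 17.4% and 29.4% of coding-gene promoters. At 96 hours 0 of 8 were higher and 1 was lower (Serpina3k), against 15.1% and 19%. By percentile the counts became 1 higher and 2 lower at 48 hours, against 21.1% and 21.3% of coding-gene promoters. They became 1 higher (Serpina11) and 0 lower at 72 hours, against 28.5% and 15.6%, and 1 higher (Serpina11) and 1 lower at 96 hours, against 22.9% and 11.8%.

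The 6 promoters listed in all 8 libraries entered the limma fit, in which fold enrichment on the log2 scale was quantile normalized over the 57473 regions of the genome that all libraries list. As the mean of 48, 72 and 96 hours minus 0 h, the log2 change was 0.28 at Serpina11 (95% interval −0.28 to 0.84), 0.17 at Serpina1c (−0.40 to 0.73) and 0.11 at Serpina1d (−0.33 to 0.56). It was 0.06 at Serpina1b (−0.53 to 0.66), 0.06 at Serpina1a (−0.49 to 0.62) and −0.11 at Serpina10 (−0.74 to 0.52). The limma adjusted p ranged from 0.857 at Serpina11 to 0.979 at Serpina1b and Serpina1a. Each interval includes 0. Over the 50 regions of the span that were fitted, the interval reached 0.548 on either side of the estimate at the median, which limits the size of change these libraries can show. On the scale of the −log10 p-value, the Serpina1b (−0.32), Serpina1d (−0.32), Serpina1a (−0.27) and Serpina1c (−0.00966) changes were below 0. Leaving out 1 library could turn the sign at every fitted promoter but Serpina1d. The change then ran, for example, from −0.13 to 0.66 at Serpina11 and from −0.52 to 0.28 at Serpina10.

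Over the whole span, limma called 0 of 50 regions in each of the 6 contrasts at an adjusted p under 0.05, and 0% of the 57473 regions of the genome. At an unadjusted p under 0.05 it picked 2 of the 50 at 48 hours, where the genome gave 10.1%, 1 at 72 hours (6.25%), 2 at 96 hours (5.65%) and 2 in the mean of all 3 times (7.81%). Between 72 and 48 hours it picked 1 (7.23%), and between 96 and 48 hours 0 (7.39%). With either undamaged library left out, the counts in the span and the shares of the genome moved. That leaves 1 library in the undamaged group, so these counts are not compared. With any 1 library left out, the count in the span ran from 0 to 5 over the 6 contrasts. The median log2 change of the 50 regions was 0.129 at 48 hours, 0.0127 at 72 hours and 0.126 at 96 hours, beside medians of 0.00264, −0.0155 and −0.0047 over all regions fitted. Leaving out single libraries turned the direction of the 72- and 96-hour medians and moved the size of the 48-hour median. Without the first undamaged library they were 0.0331, −0.0992 and −0.0195. The 48-hour median was 0.031 without the second 48-hour library and 0.0838 without the first. The 72-hour median was also below 0 without the first 48-hour library (−0.00376) or the first 72-hour library (−0.0113), and was 0.00413 without the second 48-hour library, 0.0628 without the second undamaged library and 0.0769 without the second 72-hour library. In the mean of the 3 times, 31 of the 50 regions were above 0 and 19 below, 47 lay within 0.5 of 0, and the median standard error was 0.263.

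**Figure D3:**
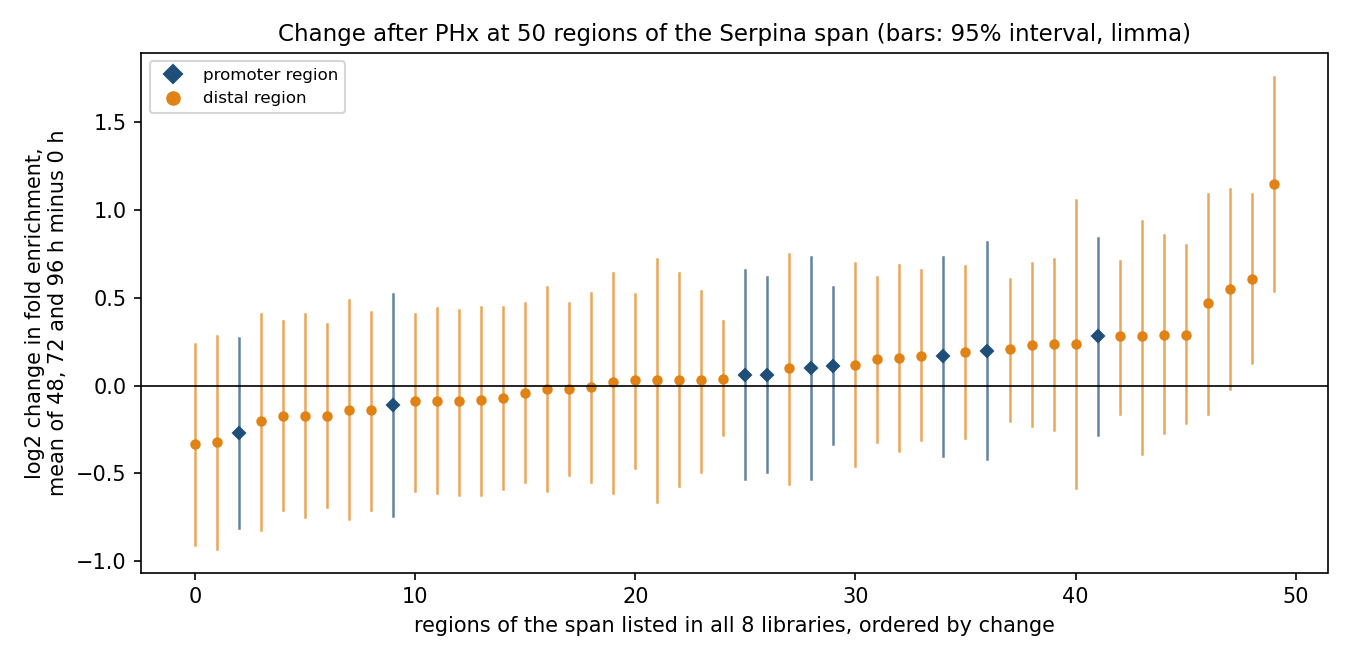
Log2 change in fold enrichment (mean of 48, 72 and 96 hours minus 0 h, vertical axis) at the 50 regions of the span listed in all 8 libraries, ordered by change, with 95% intervals from limma. Diamonds are promoter regions and circles distal regions. Most intervals include 0, and the region at the right end, upstream of Serpina12, stands at 1.15.

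The largest rise was at a distal region, chr12:104090012-104090733, which is intergenic and 45911 bp upstream of the Serpina12 start site. Its fold enrichment was 1.95 and 3.16 in undamaged liver, 5.68 and 3.73 at 48 hours, 5.76 and 4.37 at 72 hours, and 9.2 and 4.5 at 96 hours. All 6 libraries after PHx lay above both undamaged libraries. The log2 change in the mean of the 3 times was 1.15 (standard error 0.294, 95% interval 0.54 to 1.76, unadjusted p = 0.000903, limma adjusted p = 0.341). In the 10 kb on the lower-coordinate side of this region, 6 of 7 listed regions had an interval in the first undamaged library, at fold enrichments of 1.57 to 2.34, and 5 were listed in that library alone. Whether the broad weak signal of that library lowered its fold enrichment here was not tested. Without that library the log2 change was 0.80 (unadjusted p = 0.052, limma adjusted p = 0.597), its lowest value with any 1 library left out.

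This is the base sequence of 200 bases around the summit of that region, plus strand, chr12:104090254-104090453, with the match to the CTCF letters (CNAGNNGGC) in capitals.
Region upstream of Serpina12: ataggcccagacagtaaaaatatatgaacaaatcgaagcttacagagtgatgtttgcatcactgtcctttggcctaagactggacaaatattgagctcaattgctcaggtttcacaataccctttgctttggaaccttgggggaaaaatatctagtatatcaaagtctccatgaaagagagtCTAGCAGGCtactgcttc

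Next in size was a rise of 0.61 (standard error 0.229, unadjusted p = 0.0146, limma adjusted p = 0.536, and 0.50 with unadjusted p = 0.132 and limma adjusted p = 0.716 without the first undamaged library) at chr12:103616410-103617593, whose summit lies in an exon of Serpina10 14857 bp from its start site. Fold enrichment was 2.44 and 2.78 in undamaged liver and 3.38 and 3.65 at 48 hours, 4.05 and 3.43 at 72 hours, and 3.67 and 4.88 at 96 hours, with no overlap. The third was chr12:104025785-104026209, past the 3′ end of Serpina12, with 0.55 (95% interval −0.02 to 1.12).

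The falls at distal regions were smaller. An intron region of Serpina12, chr12:104033430-104034344, changed by −0.33 (95% interval −0.91 to 0.24), with fold enrichments of 8.55 and 12.6 in undamaged liver and 3.97 to 11.1 after PHx. An exon region of Serpina5, the protein C inhibitor gene, at chr12:104105656-104106303, changed by −0.32 (−0.93 to 0.28). A region between Serpina10 and Serpina6, chr12:103643354-103643681, changed by −0.20 (−0.82 to 0.41), and was the region of the span with the lowest unadjusted p between 72 and 48 hours (0.0402, limma adjusted p = 0.669). All 3 intervals include 0. Among promoter regions the lowest change was −0.27 (−0.81 to 0.27), at that of Gm5656.

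Counted by rank, fewer regions of the span moved up than moved down. At 48 hours 10 of 108 comparable regions (9.26%) ranked higher in both libraries than in both undamaged ones and 27 (25%) ranked lower, against 18% and 23.9% of all regions. At 72 hours 9 of 112 (8.04%) were higher and 24 (21.4%) lower, against 22.7% and 18.9%. At 96 hours 8 of 108 (7.41%) were higher and 28 (25.9%) lower, against 17.2% and 18.5%. The share ranked higher in the span was below that of the genome at each time, a description with no test of its own. Because an unlisted library counts as last, some outcomes were forced. A region listed in both libraries of a time and in neither undamaged library could only be higher. A region listed in both undamaged libraries and in neither library of a time could only be lower. Such regions were not set apart in the span or the genome, so their part in the gap is unknown.

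The split depended on the scale. By percentile, 13 were higher and 19 lower at 48 hours, 22 and 7 at 72 hours, and 18 and 16 at 96 hours. The genome moved in the same way, to 21.3% and 18.5%, 36% and 8.81%, and 24.4% and 11.1%. In the span the share ranked higher by percentile was 12% at 48 hours, 19.6% at 72 hours and 16.7% at 96 hours, again below the genome. Regions with a forced outcome are included in these shares too. On the −log10 p-value scale, by which ranks are set, the median log2 changes of the 50 fitted regions were 0.0166, −0.0844 and −0.097 at the 3 times.

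**Figure D4:**
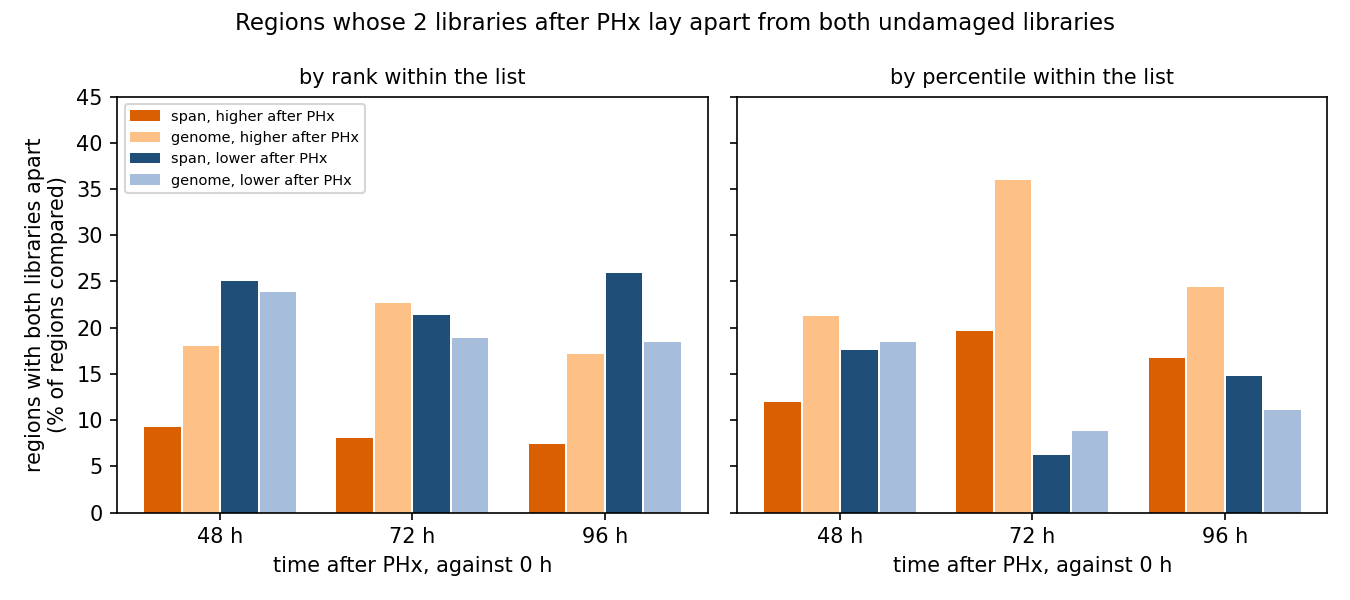
Share of regions (percent of those compared, vertical axis from 0) whose libraries at 48, 72 or 96 hours lay all above or all below both undamaged libraries, for the Serpina span (dark bars) and all regions of the genome (pale bars), by rank in the left panel and by percentile in the right panel. The dark orange bars are below the pale orange bars in both panels, for example 9.26% against 18% by rank at 48 hours. All bars include regions whose direction was forced because both libraries of a group did not list them.

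Hepatocyte marker promoters were listed for all 6 genes examined, Alb, Apoa1, Apob, Ttr, Tat and Cps1. Of these 5 ranked lower at 48 hours, 5 at 72 hours and 3 at 96 hours, where 27.4%, 29.4% and 19% of coding-gene promoters did. By percentile, a comparison added after the values were seen, the hepatocyte counts were 3, 2 and 0, against 21.3%, 15.6% and 11.8%. Tat was unlisted in both 48-hour libraries and could only be lower at that time. Alb and Ttr were each unlisted in 1 of these libraries and could not be higher. Of the Kupffer cell and leukocyte markers 2 of 4 promoters had an interval in any library and 0 in all 8. Endothelial promoters were listed for 4 of 4 genes, 3 of them in all 8 libraries, cholangiocyte promoters for 2 of 3 and stellate cell promoters for 3 of 3, with 1 of each in all 8. Promoters of Cd5l, Ptprc and Krt19 had no interval in any library. At 48 hours 1 endothelial promoter (Clec4g) and 1 stellate promoter (Des) ranked higher, where 17.8% of coding-gene promoters did. Des was unlisted in the second undamaged library and could not be lower at any time. At 72 hours 2 endothelial promoters ranked lower and Des higher, against 29.4% lower and 17.4% higher. By percentile Clec4g and Des were higher at 48 hours (21.1% of coding-gene promoters), Kdr and Des at 72 hours (28.5%) and Stab2 at 96 hours (22.9%), and 0 endothelial promoters were lower at any time. In bulk samples, fewer hepatocytes and less open chromatin per hepatocyte cannot be told apart, and the part of cell composition in the Serpina ranks was not tested.

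The strongest distal region of the span lay between Serpina6 and the Serpina1 copies, 24692 bp upstream of the Serpina6 start site, at chr12:103681109-103682251. It ranked 13156 and 19587 in undamaged liver, 18001 and 4063 at 48 hours, 7228 and 6053 at 72 hours, and 8643 and 22547 at 96 hours. Its median rank of 10899.5 was ahead of every member promoter. Both 72-hour libraries were above the undamaged ones, and the other times overlapped. The 200 bases around its summit, chr12:103681804-103682003, plus strand, hold no match to the motif letters searched.
Strongest distal region: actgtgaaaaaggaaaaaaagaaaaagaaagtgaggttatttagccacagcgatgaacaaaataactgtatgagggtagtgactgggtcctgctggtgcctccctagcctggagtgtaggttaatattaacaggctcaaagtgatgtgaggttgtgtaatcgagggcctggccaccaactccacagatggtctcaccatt

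Serpina12, whose promoter was never listed, held the next strongest distal region in an intron 2791 bp downstream of its start, chr12:104041318-104042396. It ranked 19446 and 13259 in undamaged liver, 23578 and 23927 at 48 hours, 19581 and 19486 at 72 hours, and 24496 and 14318 at 96 hours. Both libraries at 48 hours and at 72 hours lay below the undamaged ones, although at 72 hours (19581 and 19486) they were close to the weaker undamaged library (19446). The gene is best known from adipose tissue. A neighbouring intron region, chr12:104042625-104043314, ranked 34511 and 29385 in undamaged liver and came closest to the start site.

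A pair of further regions close to members ranked among the strongest. The region 1422 bp upstream of Serpina3k, chr12:104336361-104337302, ranked 24394 and 18077, then 26055 and 20183, 8035 and 30284, and 26043 and 12446, ahead of the Serpina3k promoter in all 8 libraries. An intron region of Serpina6, chr12:103655194-103656011, 1297 bp downstream of the start site, ranked 18214 and 30439, 17874 and 20746, 39533 and 9874, and 28753 and 26748, also ahead of its own promoter in all 8. Neither separated from undamaged liver at any time.

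The remaining regions of the 10 strongest had median ranks from 21026 to 28985.5. They lay past the 3′ ends of Serpina1a and Serpina1b, in the Serpina12 intron and the Serpina5 exon described above, 8153 bp upstream of Serpina6, and 11920 bp from the start site of Serpina11. Of the 41 distal regions listed in all 8 libraries, 26 had an intergenic summit, 12 lay in introns and 3 in exons.

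Some members had a broad region just past the 3′ end, which was noticed after the values were seen. A distal region of at least 1 kb, listed in all 8 libraries and within 3 kb of the annotated 3′ end, was found for 5 of the 10 members, against 4% of 21911 coding genes. Of these, 4 are near-identical Serpina1 copies. They were Serpina1b (1717 bp), Serpina1a (2514 bp), Serpina1c (2643 bp), Serpina1e (1903 bp) and Serpina3k (3514 bp). Serpina1d had a region of 1149 bp at the same place, chr12:103762316-103763464, listed in 7 of 8 libraries. In the span as a whole, 13 of the 41 distal regions listed in all 8 libraries were at least 1 kb long, against 22.3% over the genome.

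These regions were broad and of modest enrichment. The region past Serpina1a, chr12:103850942-103853455, ranked 15197 and 19668 in undamaged liver, 27806 and 22384 at 48 hours, 17395 and 15501 at 72 hours, and 32340 and 37181 at 96 hours, with fold enrichments of 3.89 to 5.78. By rank both libraries at 48 hours and at 96 hours lay below the undamaged ones, and the 72-hour libraries overlapped. By percentile the 48-hour libraries (76.4 and 83.9) overlapped the undamaged ones (88 and 81.3), and the 96-hour libraries (77.7 and 70.9) stayed below. The limma log2 change in fold enrichment was 0.00 at 48 hours and 0.01 at 96 hours (standard error 0.303 for each). The region past Serpina3k, chr12:104345658-104349171, was the most uneven of them, at rank 5808 and 46898 in undamaged liver, 59930 and 41629 at 48 hours, 48138 and 12545 at 72 hours, and 113706 and 47736 at 96 hours. Its fold enrichment stayed between 2.51 and 4.21.

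**Figure D5:**
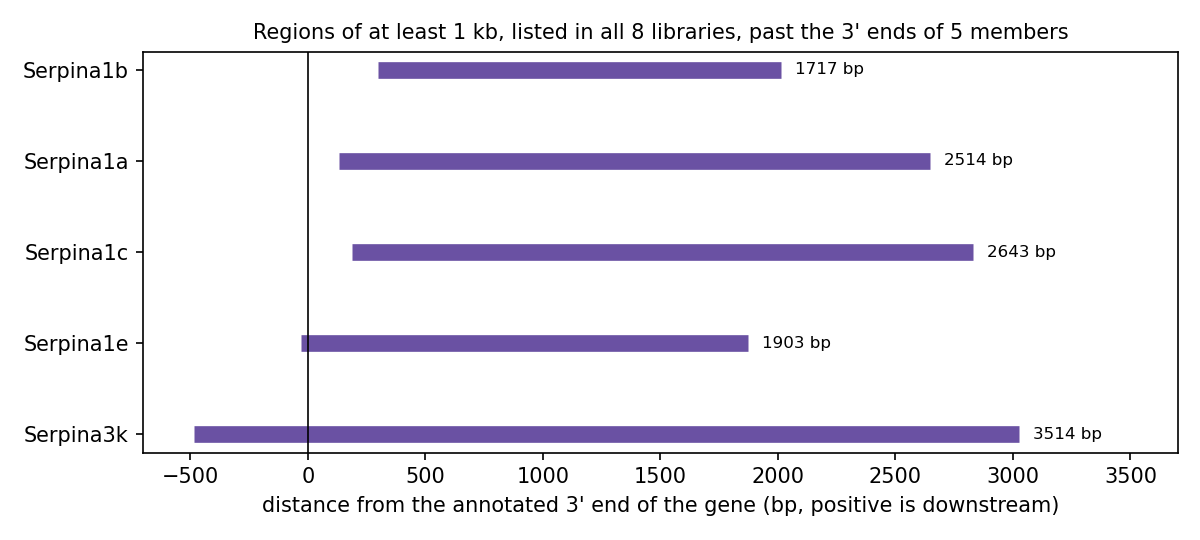
Position of the distal regions of at least 1 kb, listed in all 8 libraries, relative to the annotated 3′ end of 5 members (horizontal axis in bp, positive is downstream of the gene). Each bar is 1 region with its length, from 1717 bp at Serpina1b to 3514 bp at Serpina3k, and the Serpina3k and Serpina1e regions begin just inside the gene.

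The 3′ regions of the Serpina1 copies are themselves copies. The longest run of bases common to the regions past Serpina1b, Serpina1a, Serpina1c and Serpina1e was 68 bases, and the same run was found at 1 place within 5 kb past Serpina1d. It is in capitals, with 30 bases on each side, on the minus strand, at chr12:103726838-103726965 (1b), chr12:103762296-103762423 (1d), chr12:103852253-103852380 (1a), chr12:103893639-103893766 (1c) and chr12:103945561-103945688 (1e).
Serpina1b 3′ region: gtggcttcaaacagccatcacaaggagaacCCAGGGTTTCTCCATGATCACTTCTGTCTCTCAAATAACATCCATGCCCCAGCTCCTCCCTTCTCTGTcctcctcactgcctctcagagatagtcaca
Serpina1d 3′ region: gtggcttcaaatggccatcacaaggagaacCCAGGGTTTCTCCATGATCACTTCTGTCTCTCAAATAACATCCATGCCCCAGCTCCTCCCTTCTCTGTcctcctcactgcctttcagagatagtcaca
Serpina1a 3′ region: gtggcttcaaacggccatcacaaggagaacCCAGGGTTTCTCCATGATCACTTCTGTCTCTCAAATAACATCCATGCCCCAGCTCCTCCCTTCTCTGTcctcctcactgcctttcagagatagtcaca
Serpina1c 3′ region: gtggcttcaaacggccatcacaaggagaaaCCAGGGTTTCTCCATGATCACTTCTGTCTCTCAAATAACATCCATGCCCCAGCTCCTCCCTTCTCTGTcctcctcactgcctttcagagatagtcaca
Serpina1e 3′ region: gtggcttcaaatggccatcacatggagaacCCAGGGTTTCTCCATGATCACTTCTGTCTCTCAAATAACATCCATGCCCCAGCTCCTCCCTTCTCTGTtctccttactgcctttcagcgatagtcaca
Over the 128 bases the 10 pairs were 94.5% to 99.2% identical. The run began 1190 to 1273 bp past the 3′ end of each gene, and lay inside a listed region at all 5 copies. The share of 50-base windows in the printed bases that were unique was 0% at Serpina1a, 15.2% at Serpina1d, 36.7% at Serpina1b, 38% at Serpina1c and 67.1% at Serpina1e, so signal at these bases cannot be assigned to 1 copy with certainty.

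Motif letters for factors known in hepatocytes were counted in the 200 bases around the summit of each region, on both strands, and matches to different motifs may overlap. Of the 50 regions listed in all 8 libraries, 10% held the FOXA letters TGTTTAC or TATTTAC, against 7.6% of the 57473 such regions of the genome. The C/EBP letters TTNNGCAA were found in 12%, against 12.8%. The STAT letters TTCNNNGAA were in 6%, against 5.27%, and the AP-1 letters TGANTCA in 4%, against 7.51%. The HNF4 letters CAAAGTNCA were in 0%, against 3.44%, and the CTCF letters CNAGNNGGC in 14%, against 22.2%. With 50 regions, 1 region is 2 percentage points. Taken apart, 3 of 9 promoter regions (33.3%, genome 3.89%) and 2 of 41 distal regions (4.88%, genome 9.31%) held the FOXA letters. These shares were 11.1% (4.04%) and 2.44% (9.11%) for AP-1. They were 11.1% (6.77%) and 12.2% (15.6%) for C/EBP, and 0% (3.7%) and 7.32% (6%) for STAT. CTCF letters were below the genome in both kinds, and HNF4 letters were in 0% of both.

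Motif matches over the 150 bases upstream of the start site were counted for the 9 members other than Serpina10, beside the share of 41493 start sites of the genome with a match. The FOXA letters were in 1 of the 9, Serpina6 (2.73% of start sites). Its promoter is shown with its C/EBP and FOXA matches in capitals, in that order, minus strand, at chr12:103657213-103657362.
Serpina6 promoter: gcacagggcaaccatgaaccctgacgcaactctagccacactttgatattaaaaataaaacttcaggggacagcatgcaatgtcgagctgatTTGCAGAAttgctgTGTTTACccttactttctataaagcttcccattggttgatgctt
The FOXA letters end 38 bases upstream of the start of Serpina6. The C/EBP letters were in 3 of the 9, Serpina6, Serpina1a and Serpina12 (4.69% of start sites), the STAT letters in 1, Serpina11 (3.95%), and the CTCF letters in 2, Serpina1a and Serpina12 (13.5%). The windows of Serpina1b, Serpina1d, Serpina1c, Serpina1e and Serpina3k held none of these letters. The AP-1 and HNF4 letters were in 0 of the 9, whereas 3.46% and 0.636% of start sites held them.

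Other serpin genes gave a frame for these values. Of 15 other Serpina genes in or beside the span, 8 had a promoter interval in any library and 2 in all 8, Serpina3m and Serpina3n. Serpina3n lies past the end of the span, and the strongest Serpina3m promoter interval is likewise outside it and is not the one shared with Serpina3k. At 48 hours 0 of 5 comparable promoters were higher and 1 was lower, by rank and by percentile, against 17.8% and 27.4% of coding-gene promoters by rank and 21.1% and 21.3% by percentile. That promoter, of Serpina5, ranked 101098 and 82106 in undamaged liver, was unlisted at 48 and 96 hours, and ranked 78380 and 95448 at 72 hours. Since it entered the comparisons at 48 and 96 hours through the undamaged libraries alone, it could only be lower there, and at 72 hours it overlapped by rank and was higher by percentile. All 6 liver serpins encoded elsewhere in the genome were listed in all 8 libraries, and at 48 hours 0 were higher and 4 lower, against 17.8% and 27.4% of coding-gene promoters. By percentile 1 was higher (Serpinf2) and 3 were lower, against 21.1% and 21.3%, and Serping1 overlapped.

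The 4 lower by rank were Serpinc1, Serpind1, Serpina7 and Serping1. Serpinc1, which encodes antithrombin, ranked 15515 and 8291 in undamaged liver, 33720 and 24111 at 48 hours, 21967 and 24142 at 72 hours, and 23549 and 24000 at 96 hours. Serpind1, which encodes heparin cofactor II, ranked 16923 and 12269 in undamaged liver and between 26129 and 37476 in all 6 libraries after PHx. For both genes the groups did not overlap at any time. Serping1, the C1 inhibitor gene, and Serpina7, the thyroxine-binding globulin gene, were lower by rank at 48 hours alone.

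Of 11 genes for factors and signals that act on serpin genes in hepatocytes, all had a promoter interval in all 8 libraries. At 48 hours 2 were higher, Foxa3 and Nr3c1, the glucocorticoid receptor gene, and 3 were lower, against 17.8% and 27.4% of coding-gene promoters. At 72 hours 0 were higher and 4 lower, against 17.4% and 29.4%, and at 96 hours 1 was higher and 1 lower, against 15.1% and 19%. By percentile 2 were higher and 1 lower at 48 hours, against 21.1% and 21.3%. The counts by percentile were 4 and 1 at 72 hours, against 28.5% and 15.6%, and 2 and 1 at 96 hours, against 22.9% and 11.8%. Hnf4a, a central regulator of hepatocyte identity, ranked 2492 and 1918 in undamaged liver and 5443 and 3415 at 48 hours, and Il6ra, the interleukin 6 receptor gene, ranked 11463 and 9239 and then 21423 and 11920. By percentile Hnf4a stayed lower at 48 hours and Il6ra overlapped undamaged liver. Foxa3 ranked 4813 and 4689 in undamaged liver and 4188 and 2613 at 48 hours, and was lower than undamaged liver at 72 hours (6258 and 7695) by rank and by percentile.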

How the data were processed

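Bulk ATAC-Seq peak lists of 8 hepatocyte libraries were used. According to the study's methods, reads were trimmed, aligned to mm10 with Bowtie2 within the ENCODE pipeline and freed of PCR duplicates, and peaks were called per library with MACS2, at a p-value threshold of 0.01 by the names of the lists. The deposited lists give, per interval, its position, a display score that entered no comparison, the fold enrichment as a ratio over local background, and −log10 p-value and q-value. From these lists, rows with identical coordinates were collapsed to that with the highest −log10 p-value, and intervals of the 8 lists were merged where they overlapped by at least 1 bp. Genes and start sites were from GENCODE for mm10. The study's read-count test cannot be run on peak lists. Instead limma 3.58.1 (R 4.3.3, with trend) was fitted to quantile-normalized log2 fold enrichment of all regions listed in all 8 libraries, with Benjamini-Hochberg adjustment, called at 0.05. It was tested on simulated data. A region or promoter counted as higher or lower by rank when both libraries of a time lay on the same side of both undamaged libraries, an unlisted one counting as last, among those listed in at least 2 of the 4. Window and motif counts used Python 3.11.15 on GRCm38.p6. Lists hold no reads, so depth is unknown, and strength rather than read number is compared. The study describes 3 replicates from separate hepatocyte preparations at 0 and 48 hours, whereas 2 libraries a group were used here and the labels tie none to an animal, so p-values measure the spread between these libraries. The members and lists were chosen with earlier results of these data known. Named were all 10 members, the 10 distal regions of best median rank, the 3 largest rises and falls among fitted distal regions, and, from each list of other genes, up to 4 separated at 48 hours. Nr3c1, Serpinf2, Gm5656, Serpina3m, Serpina3n, the Serpina12 intron region nearest its start and the 3′ regions of Serpina1d and Serpina3k were named after their values were seen. Some items are not reported here.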

Additional observations from a re-analysis of the deposited data

How the results depend on the processing

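limma called 0 regions of the span under each of the 84 combinations of contrast and alternative, which covered the −log10 p-value scale, median centring, regions in at least 2 lists, a merge of the 50000 strongest intervals, q under 0.05, the replicate number as a block, and each library left out. The block thus gave 0 called regions of the span in every contrast, and over the genome 1 higher and 2 lower at 48 hours. Over the genome, the −log10 p-value scale gave 12 higher and 3 lower at 48 hours and 27 higher in the mean of the 3 times, and leaving out undamaged replicate 1 gave 41 higher and 1 lower in that mean. Libraries with the same replicate number deviated from their group means with correlations of −0.0553 to 0.125 between groups. What the number marks is not stated, and a batch shared by some of the libraries was not tested. Counts by rank moved most. By percentile they became 22 higher and 7 lower of 112 at 72 hours, against 36% and 8.81% of all regions. At 96 hours they became 18 and 16 of 108, against 24.4% and 11.1%. With the 50000 strongest intervals alone they were 3 and 8 of 38 at 48 hours, against 20.7% and 24.4% of all regions. They were 4 and 4 of 38 at 72 hours (20.9% and 22.5%), and 1 and 8 of 39 at 96 hours (16.8% and 19.5%). With intervals that cover at least 50% of a region, 4 of 75 were higher and 21 lower at 96 hours, against 15.3% and 19.6% of all regions. With 1 library left out, a comparison of 3 libraries sets a looser condition, and 19 to 28 were higher and 33 to 46 lower at 48 hours, 20 to 27 and 38 to 46 at 72 hours, and 16 to 26 and 38 to 45 at 96 hours. As shares at 48 hours these were 19.8% to 28% and 34.4% to 46%, against 28.1% to 34.5% and 34.6% to 43.1% of all regions. At 72 hours they were 19.4% to 25.5% and 35.8% to 47.3%, against 32.5% to 41.5% and 34.5% to 36.6%. At 96 hours they were 18.8% to 26.3% and 42.4% to 48.9%, against 27.9% to 34.6% and 32.9% to 39.9%. Of 12 named log2 changes, 5 kept their sign under every alternative run. On the −log10 p-value scale the changes were −0.32 at Serpina1b, −0.32 at Serpina1d, −0.27 at Serpina1a and −0.00966 at Serpina1c, and with regions in at least 2 lists −0.0785 at Serpina1a. The cause was not tested. With 1 library left out the log2 change ran from −0.52 to 0.28 at Serpina10, −0.14 to 0.26 at Serpina1b, −0.094 to 0.21 at Serpina1a, −0.17 to 0.48 at Serpina1c and −0.13 to 0.66 at Serpina11, and from −0.42 to 0.0011 at chr12:103643354-103643681. At chr12:104090012-104090733 it ran from 0.80 to 1.48. The range was 0.0316 to 0.19 at Serpina1d, 0.50 to 0.70 at chr12:103616410-103617593 and 0.38 to 0.72 at chr12:104025785-104026209. For the falls it was −0.62 to −0.051 at chr12:104033430-104034344 and −0.53 to −0.13 at chr12:104105656-104106303. The member promoters were listed in the same libraries within 500 bp of a start site and at q under 0.05. With 400 bases around the summit, the order of span and genome turned for AP-1 letters (16% against 12.5%), FOXA letters (12% against 12.8%) and C/EBP letters (30% against 20.4%). Counts in the lists of other genes and markers by percentile, an alternative chosen after seeing the data, stand beside those by rank. No library carries read counts, so peak lists limit every value to strength within a list.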
